A study of Mus musculus with 18 samples.

Results

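Fatty acid uptake and oxidation was followed through 30 genes, named by symbol as genes of the pathway while earlier results of these data were known, of the 55401 genes in the tables of 18 pools of thick ascending limb (TAL), the salt-absorbing segment of the loop of Henle. The genes were read in 9 roles, from the transcriptional regulators and the proteins that bring fatty acids into the cell to the mitochondrial and peroxisomal enzymes that shorten them. All 30 passed the filter on low counts in every comparison. Each pool held 150 to 200 tubules dissected by hand, in the cortex (CTAL) or in the outer medulla's inner stripe (MTAL), of 1 male mouse of 4 to 10 months, labelled C57BL/6J and in the methods of the study mostly of C57BL/6 background. The conditional knock-out mice (cKO) carried floxed *Cldn10* alleles and a Cre recombinase driven by the Ksp-cadherin promoter, which acts in the distal nephron, and WT mice were littermates with the same floxed alleles and no Cre. *Cldn10* encodes claudin-10, a paracellular cation channel of the TAL. There were 5 pools of WT CTAL, 5 of cKO CTAL, 5 of WT MTAL and 3 of cKO MTAL, all poly-A RNA-seq.

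Fatty acids enter tubular cells through CD36 and fatty acid transport proteins, are bound by small cytosolic carriers and are activated to acyl-CoA by long-chain acyl-CoA synthetases. Carnitine acyltransferases carry the acyl group into mitochondria, where dehydrogenases, hydratases and thiolases remove acetyl-CoA in repeated rounds and pass the electrons to ubiquinone. PPARα, with its coactivator PGC-1α, switches these genes on, and kidney tubules with a high rate of ion transport use fatty acids as a main fuel.

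Total counts ranged from 10824328 to 62339991 per pool. *Cldn10* had 151 to 283 CPM (counts relative to the TMM-normalised library size) in cKO pools and 383 to 823 in WT pools, so that its RNA was lower but not absent after deletion. The study kept for analysis cKO pools with clearly lower *Cldn10*, and left out 1 cKO CTAL pool at a level like WT CTAL. This separation was thus a condition of keeping pools. The cKO MTAL pools left out are reported as failing quality control. *Slc12a1*, the sodium-potassium-chloride cotransporter that defines the TAL, had at least 11416 CPM in every pool. The labels of WT CTAL pool 1 give both genotypes. It was taken as WT from its pool name, and its 446 CPM of *Cldn10* do not settle its genotype. Without it the log2 fold changes of the 30 genes moved by at most 0.109 in CTAL and 0.107 between WT segments, and each call that was lost is named below. *Xist*, which female cells express, was between 6.50 and 8.91 CPM in 7 pools and at most 0.736 CPM in the other 11, while 4 Y-linked genes had at least 14.4 CPM in all 18. The 7 pools were 2 of WT CTAL, 1 of cKO CTAL, 4 of WT MTAL and 0 of cKO MTAL. Summed CPM of 15 circadian clock genes lay between 460.04 and 524 in cKO MTAL and between 699 and 1040.5 in WT MTAL, and between 427 and 539.6 against 695 and 1017 in CTAL. Single clock genes went both ways. Of 14 tested in MTAL 1 was called higher and 5 lower in cKO, and of 12 tested in CTAL 1 and 6. The part of these differences between pools in the results below was not tested, beyond fits with the *Xist* pools as a term or left out.

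The level of each gene was read as TPM, which corrects for transcript length. In WT MTAL the highest was *Acadm*, the medium-chain acyl-CoA dehydrogenase, at 472 ± 61.0 TPM (SD, n = 5), before the heart-type fatty acid binding protein *Fabp3* at 426 ± 93.3 TPM. These neighbours did not differ beyond their spread. *Etfa* and *Etfb*, the subunits of the flavoprotein that takes electrons from the dehydrogenases, followed at 331 ± 41.9 and 315 ± 33.0 TPM. The lowest was *Ppara*, encoding the receptor PPARα, at 7.59 ± 1.67 TPM, below the peroxisomal bifunctional enzyme *Ehhadh* at 14.8 ± 1.84 TPM. WT CTAL had the same gene at each end of the order, with 553 ± 59.1 TPM of *Acadm* and 4.55 ± 0.965 TPM of *Ppara* (n = 5). Among the acyl-CoA synthetases *Acsl1* was the most abundant in WT MTAL, at 281 ± 48.5 TPM, against 37.4 ± 20.3 TPM of *Acsl5*, 26.9 ± 13.3 TPM of *Acsl3* and 17.3 ± 2.71 TPM of *Acsl4*. The last 3 overlapped in their spread. TPM of *Acsl3* and *Acsl5* followed their counts less closely than TPM of other genes did. The TPM obtained per CPM, relative to the median gene of each pool, varied 3.63-fold over the pools for *Acsl3* and 2.81-fold for *Acsl5*, and at most 1.76-fold for the other 28 genes.

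**Figure D1:**
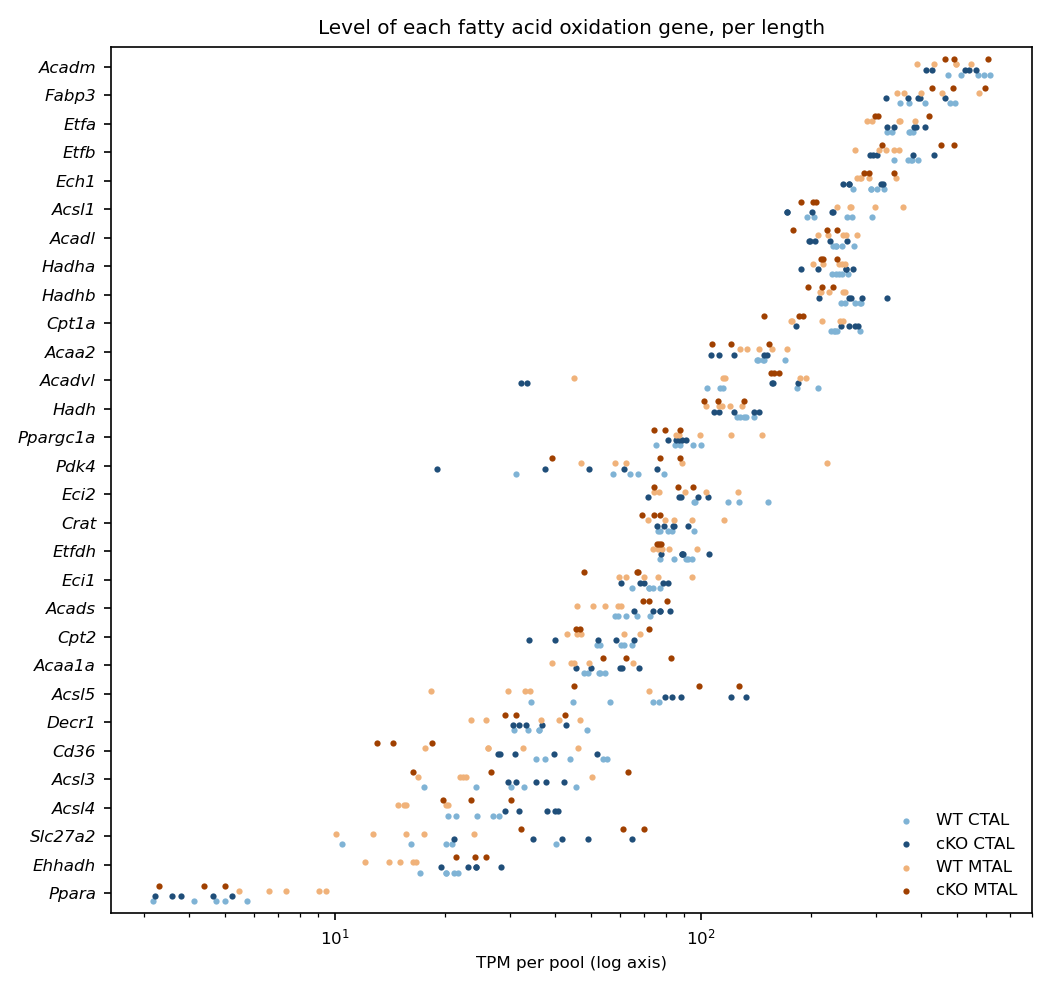
TPM of the 30 genes in every pool on a log axis, with genes ordered by their mean in WT MTAL and 1 point per pool, coloured by group. Levels run from *Ppara* at 7.59 TPM to *Acadm* at 472 TPM in WT MTAL, and the 4 groups lie close together for most genes. *Slc27a2* stands higher in cKO MTAL.

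Many of these genes varied little between pools of 1 group. The median SD was 0.18 on the log2 scale over the 30 genes and 0.26 over 12581 genes. These sets were not matched for expression level. *Acads*, the short-chain dehydrogenase, varied least (SD 0.087), and *Acadvl*, *Pdk4* and *Slc27a2* varied most (SD 0.94, 0.69 and 0.61). *Acadvl*, the very-long-chain acyl-CoA dehydrogenase of the inner membrane, had 43.4 CPM in cKO CTAL pool 9, 48.3 CPM in cKO CTAL pool 21 and 59.3 CPM in WT MTAL pool 15, against 167 to 354 CPM in the other 15 pools. These 3 pools come from 3 animals and 2 groups, so that the low values did not follow segment or genotype. *Acadvl* overlaps a protein-coding gene on the opposite strand, as do 7 of the 30 genes, and 2 overlap one on their own strand. Whether the counting used the strand is not given in the sources used here, so that counts of these genes are uncertain.

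**Figure D2:**
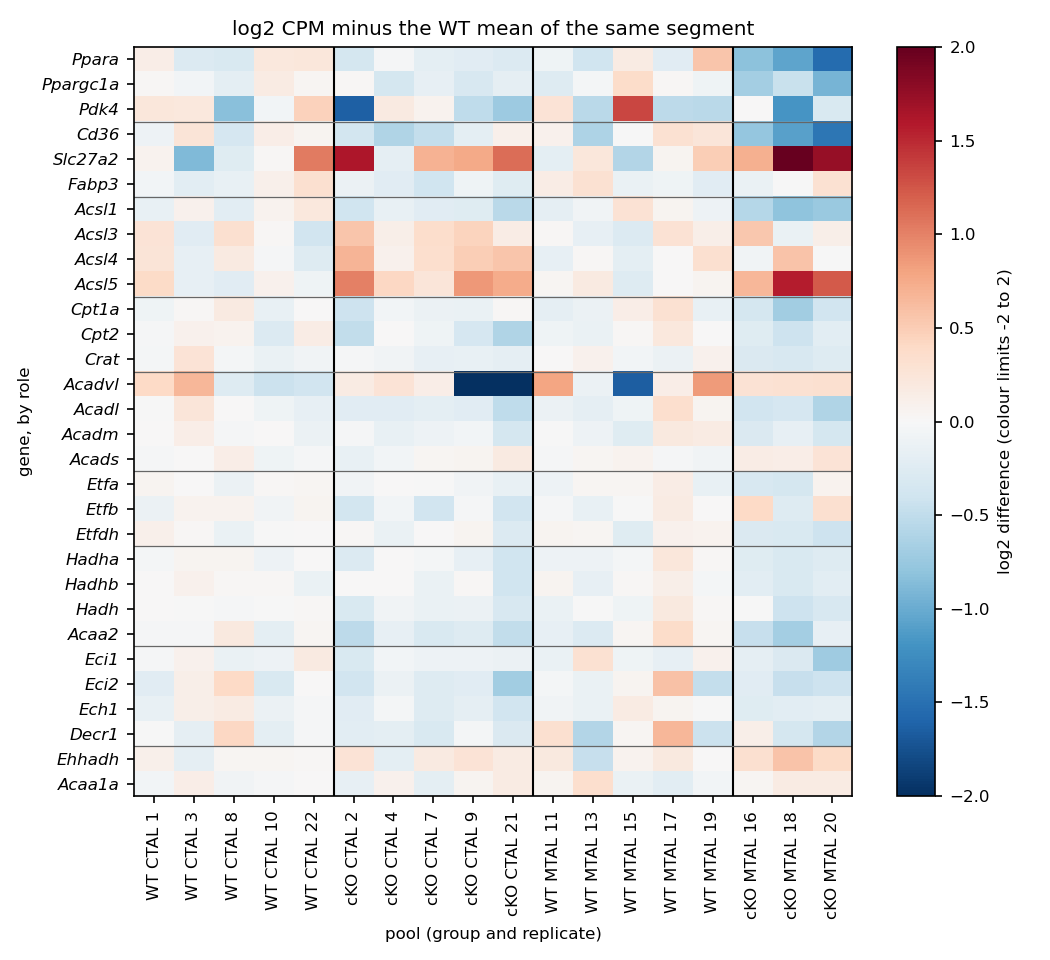
Difference in log2 CPM of each gene and pool from the WT mean of the same segment, with pools in columns by group and genes in rows by role. Colours run from blue at 2 log2 units lower to red at 2 higher. The 3 cKO MTAL columns are red for *Slc27a2* and *Acsl5* and pale blue for most enzymes, and *Acadvl* is dark blue in 3 single pools.

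The effect of the *Cldn10* deletion in MTAL was read from 3 cKO and 5 WT pools. The study reports calcium deposits (nephrocalcinosis) in the outer medulla of cKO kidneys, which made these tubules hard to dissect. It left out 2 cKO MTAL pools after quality control. The part of nephrocalcinosis in the differences cannot be told apart from that of the deletion. *Acsl5* and *Slc27a2* rose, and *Cd36*, *Ppara*, *Ppargc1a* and *Acsl1* fell, so that 2 of 30 genes were called higher and 4 lower at an adjusted p below 0.05. Of 12060 genes tested, 4.44% were called higher and 2.57% lower. With a change of at least 2-fold, 4 of the 30 were called, against 3.74% of all genes. The CPM of the groups did not overlap for 4 genes that were higher in cKO MTAL and 13 that were lower, where the same held for 5.61% and 9.41% of all genes. The median log2 fold change was −0.22 over the 30 genes, 20 of which had an estimate below 0, and 0.00 over all genes. On the log2(TPM + 1) scale the median of all genes was itself shifted by 0.22 in cKO MTAL, that of the 30 genes was −0.00 and 15 estimates were below 0. Their distance from the median of all genes was −0.22 on both scales. On TPM *Slc27a2* alone was called.

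The uptake genes moved in opposite directions. *Slc27a2* encodes a fatty acid transport protein that also activates very-long-chain fatty acids and is abundant in the proximal tubule. Its CPM was 43.7, 107 and 90.5 in cKO MTAL pools 16, 18 and 20, and 23.2, 31.2, 17.6, 27.7 and 37.5 in WT MTAL pools 11, 13, 15, 17 and 19. Every cKO pool was above every WT pool, and pool 16 lay close to the highest of them. The log2 fold change was 1.59 ± 0.25 (SE) with an adjusted p of 0.00115. The summed CPM of 21 proximal tubule markers was 396 to 915 in cKO MTAL and 258 to 378 in WT MTAL, highest in pool 18 as for *Slc27a2*. Of the 10 markers tested 3 were called higher and 0 lower. The median log2 fold change of those 10 was 1.04. From 0 to 4 of the 21 markers were at 0 in cKO MTAL pools and from 0 to 3 in WT MTAL pools, among them *Slc34a3* in 2 of 3 cKO and 3 of 5 WT pools. The endocytic receptor *Lrp2* was between 7.89 and 34.6 CPM in cKO MTAL and between 7.75 and 20.1 CPM in WT MTAL. The part of proximal tubule RNA in the difference was not tested.

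*Cd36*, the scavenger receptor that takes up long-chain fatty acids in tubules, endothelium and macrophages, had 25.8, 20.5 and 15.9 CPM in cKO MTAL pools 16, 18 and 20. In WT MTAL pools 11, 13, 15, 17 and 19 it had 46.8, 28.8, 43.8, 54.5 and 52.3 CPM. The groups did not overlap, though WT pool 13 came close. The log2 fold change was −1.07 ± 0.22 with an adjusted p of 0.00917. Summed CPM of 12 endothelial markers was 219 to 363 in cKO MTAL and 385 to 609 in WT MTAL. The lowest WT sum was in pool 13, as for *Cd36*, while the highest cKO sum was in pool 20, where *Cd36* was lowest. Of the 12 markers 5 fell while 0 rose. The part of endothelial RNA was not tested, and in bulk RNA fewer cells of a type and less RNA per cell cannot be told apart. *Fabp3* did not pass the test, at 232 to 313 CPM against 217 to 311 CPM and a log2 fold change of 0.11 with a 95% interval from −0.19 to 0.40.

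The sequences before the starts of both called uptake genes are shown because nuclear receptors such as PPARα bind pairs of the hexamer AGGTCA. Both windows span 250 bases before the start of the RefSeq transcript (GRCm38.p6, printed 5′ to 3′ on the strand of the gene) and hold this hexamer 1 time, in capitals, on the opposite strand. The start of *Cd36* lies 52905 bases and that of *Slc27a2* 617 bases inside the gene as GENCODE annotates it, so that other annotated transcripts of both genes begin further upstream. The windows lie at chr5:17835897-17836146, minus strand, for *Cd36* and at chr2:126552774-126553023, plus strand, for *Slc27a2*.
Cd36: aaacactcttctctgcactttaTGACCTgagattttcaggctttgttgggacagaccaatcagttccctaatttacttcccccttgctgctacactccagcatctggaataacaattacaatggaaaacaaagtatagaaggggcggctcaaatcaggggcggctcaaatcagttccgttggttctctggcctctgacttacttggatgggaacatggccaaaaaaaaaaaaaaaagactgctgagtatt
Slc27a2: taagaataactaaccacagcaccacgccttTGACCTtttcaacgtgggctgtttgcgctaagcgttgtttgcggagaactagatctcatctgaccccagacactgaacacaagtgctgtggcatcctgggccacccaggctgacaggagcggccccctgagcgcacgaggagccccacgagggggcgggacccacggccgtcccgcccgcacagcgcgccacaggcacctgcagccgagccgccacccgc
The hexamer begins 228 bases before the start in *Cd36* and 220 bases before it in *Slc27a2*. An exact hexamer on either strand stood in 5 of the 27 genes with a window in RefSeq (18.5%), the others being *Cpt1a*, *Acadm* and *Acadvl*, and in 14.02% of 32851 windows of all genes. A pair of hexamers 1 base apart with up to 2 mismatches, which can overlap the exact hexamer, stood in *Cd36* and *Etfa* and in 3.24% of all windows. The letters TCAAGGTCA, the site of oestrogen-related receptors, stood in none of the 27 and in 0.387% of all windows. *Crat*, *Acaa2* and *Decr1* had no window, and 8 of the 27 genes had their first window at a start more than 250 bases inside the annotated gene. A match of letters is a description of the window, and the gene that rose and the gene that fell share it.

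The acyl-CoA synthetases split as well. *Acsl5*, an isoform of the mitochondrial outer membrane and endoplasmic reticulum that is also linked to triglyceride synthesis, had 114, 213 and 168 CPM in cKO MTAL pools 16, 18 and 20. WT MTAL pools 11, 13, 15, 17 and 19 held 73.4, 81.1, 59.6, 71.7 and 74.1 CPM. The groups were apart, and pool 18 was the highest, as for *Slc27a2*. *Acsl5* rose by a log2 fold change of 1.24 ± 0.16 with an adjusted p of 0.000189, the smallest among the 30 genes. Summed CPM of 8 tubular injury markers was 2303, 9210 and 2368 in the same 3 cKO pools and 1192 to 1486 in WT MTAL, without overlap and again highest in pool 18. Of the 5 injury markers tested 3 were called higher and 0 lower, with a median log2 fold change of 1.85. Without pool 18 the log2 fold change of *Acsl5* was 1.03 with an adjusted p of 0.000996, and that of *Slc27a2* was 1.35 with one of 0.00652. The part of tubular injury in the changes of the 6 genes was not tested. Leaving out pool 18 cannot separate it from genotype, because the other cKO pools, at 2303 and 2368 CPM, were also above every WT pool. *Acsl1*, the main synthetase that feeds oxidation in muscle and fat, had 544, 463 and 485 CPM in the cKO pools and 719, 770.4, 995, 841 and 759 CPM in the WT pools in the same order. All 3 cKO pools were below all 5 WT pools. The log2 fold change was −0.67 ± 0.13 with an adjusted p of 0.00653. *Acsl3* and *Acsl4*, which load lipid droplets and arachidonic acid respectively, were not called, with log2 fold changes of 0.25 (95% interval −0.16 to 0.65) and 0.23 (−0.12 to 0.58).

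The window before the RefSeq start of *Acsl5* is shown because this gene was called in the most comparisons. It lies at chr19:55253119-55253368 on the plus strand, before a start 1431 bases inside the gene as GENCODE annotates it, and holds no exact hexamer.
Acsl5: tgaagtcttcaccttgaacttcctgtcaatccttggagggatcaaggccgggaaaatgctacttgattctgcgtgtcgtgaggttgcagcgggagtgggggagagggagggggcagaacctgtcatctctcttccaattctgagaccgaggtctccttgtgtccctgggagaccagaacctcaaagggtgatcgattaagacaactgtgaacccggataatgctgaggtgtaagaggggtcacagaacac
Of its bases 52.8% are G or C, against a median of 59.2% over the windows of these genes and 52.4% over all windows. *Acsl5* overlaps the protein-coding gene *Zdhhc6* on the opposite strand.

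The regulators *Ppara* and *Ppargc1a* fell. *Ppara* had 10.6, 9.03 and 6.26 CPM in cKO MTAL pools 16, 18 and 20 and 18, 14.5, 21.7, 16.3 and 28.4 CPM in the WT MTAL pools in ascending order of pool number. The groups did not overlap, and WT pool 19 was the highest of all pools. The log2 fold change was −1.14 ± 0.28 with an adjusted p of 0.0234. That adjusted p was 0.0607 without WT pool 15, 0.0619 without WT pool 19 and 0.0874 without cKO pool 20. *Ppargc1a*, encoding PGC-1α, had 266, 313 and 224 CPM in cKO MTAL and 358, 415, 553, 434 and 403 CPM in WT MTAL. Again no cKO pool reached a WT pool, and the log2 fold change was −0.65 ± 0.15 with an adjusted p of 0.0167, or 0.0870 without cKO pool 20. Collecting duct markers stood apart in that pool, at a summed 1032 CPM over 8 principal cell genes and 298 CPM over 8 intercalated cell genes. The other cKO MTAL pools had at most 123 and 82.8 CPM, and WT MTAL at most 363 and 119.8 CPM. The part of collecting duct RNA was not tested beyond leaving out the pool. *Pdk4*, the kinase that shuts pyruvate out of oxidation when fatty acids are burned, was not called. It had 89.7 to 206 CPM in cKO MTAL and 139.5 to 514 CPM in WT MTAL, overlapping, and a log2 fold change of −0.57 with a 95% interval from −1.40 to 0.26.

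**Figure D3:**
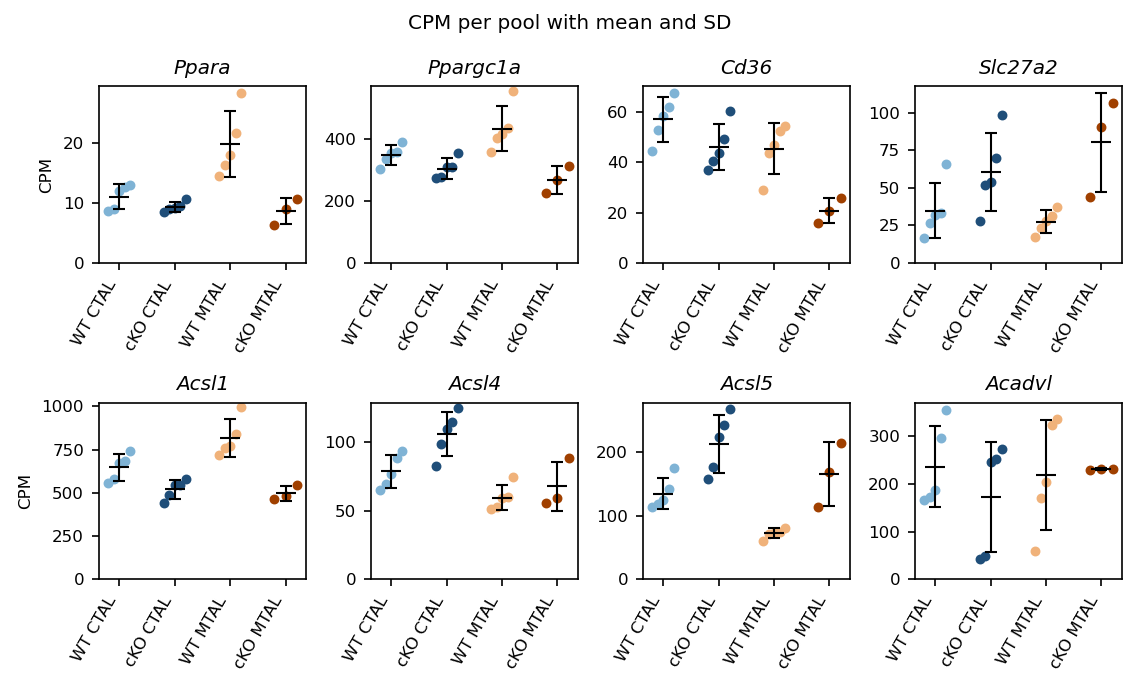
CPM in every pool of the 7 genes called in any comparison and of *Acadvl*, with the mean and SD of each group as a bar and whiskers, on axes that start at 0. For *Slc27a2* and *Acsl5* the 3 cKO MTAL pools lie above the 5 WT MTAL pools, and for *Cd36*, *Ppara*, *Ppargc1a* and *Acsl1* below them. *Acadvl* shows the 3 low pools.

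None of the 3 carnitine acyltransferases was called, though each lay lower without overlap. *Cpt1a*, the gate of mitochondrial entry, had 584, 462 and 574 CPM in cKO MTAL and 661 to 929 CPM in WT MTAL, and a log2 fold change of −0.43 ± 0.14 with an adjusted p of 0.0732. *Cpt2*, its partner on the inner membrane, and *Crat*, which exports acetyl groups as acetylcarnitine, had log2 fold changes of −0.24 each, with adjusted p of 0.263 and 0.187. *Cpt1a* and *Acadl* were called by the likelihood ratio test of DESeq2, which the study used, at adjusted p below 0.05.

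The 4 dehydrogenases gave no common direction. *Acadl*, the long-chain enzyme, had 225, 231 and 193 CPM in cKO MTAL against 259 to 369 CPM in WT MTAL, with a log2 fold change of −0.40 and an adjusted p of 0.0736. *Acadm* had −0.22 and *Acads* 0.23, on which the cKO pools (88.6 to 97.0 CPM) all lay above the WT pools (77.0 to 85.0 CPM). *Acadvl* had 0.14 with a 95% interval from −0.60 to 0.87. The electron carriers *Etfa*, *Etfb* and *Etfdh*, the last of which hands electrons to ubiquinone, lay between −0.29 and 0.23, and the smallest adjusted p was 0.130 for *Etfdh*.

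The trifunctional protein, which carries out the later steps on long chains, is built from *Hadha* and *Hadhb*. The subunits start head to head. The 228 bases at chr5:30155003-30155230 lie within 250 bases before both RefSeq starts. They are shown, on the plus strand, as the stretch that the windows of the pair share. The RefSeq start of *Hadha* lies 182 bases inside the gene as GENCODE annotates it, so that part of this stretch is within that gene.
Hadha and Hadhb: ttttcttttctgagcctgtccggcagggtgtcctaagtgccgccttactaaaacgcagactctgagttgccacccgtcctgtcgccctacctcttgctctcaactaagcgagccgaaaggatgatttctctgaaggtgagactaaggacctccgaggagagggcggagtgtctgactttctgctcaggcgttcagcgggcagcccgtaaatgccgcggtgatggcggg
In CPM *Hadha* had 427, 408 and 422 in cKO MTAL pools 16, 18 and 20 against 469.7 to 592 in WT MTAL, and *Hadhb* had 246, 231 and 246 against 254 to 311. Neither pair of groups overlapped. The log2 fold changes were −0.22 ± 0.11 and −0.20 ± 0.11, of similar size in both subunits, with adjusted p of 0.235 and 0.286. *Hadh*, the short-chain hydroxyacyl-CoA dehydrogenase, and the thiolase *Acaa2* had −0.18 and −0.39. The isomerases *Eci1* and *Eci2* and the reductase and isomerase *Decr1* and *Ech1*, which prepare unsaturated chains, lay between −0.36 and −0.17, with adjusted p of 0.226 or above. The peroxisomal enzymes *Ehhadh* and *Acaa1a* were the only role with both estimates above 0 in MTAL. *Ehhadh* had 43.9, 52.2 and 45.7 CPM in cKO MTAL and 25.3 to 40.1 CPM in WT MTAL, with a log2 fold change of 0.47 ± 0.17 and an adjusted p of 0.104, and *Acaa1a* had 0.16.

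The MTAL groups differed in *Xist*, which 4 of 5 WT pools and 0 of 3 cKO pools held. A fit of all 18 pools called *Acadl*, *Cpt1a*, *Ehhadh* and *Etfdh* besides the 6 genes. With a term for *Xist* in that fit the 6 genes and *Ehhadh* were called, and *Acadl*, *Cpt1a* and *Etfdh* were not. With the *Xist* pools left out WT pool 13 alone stood against the 3 cKO pools and was assumed to vary like them. The spread of WT MTAL could not be estimated in that fit. Its log2 fold changes were 1.39 for *Slc27a2*, 1.06 for *Acsl5*, −0.43 for *Cd36*, −0.71 for *Ppara*, −0.60 for *Ppargc1a* and −0.59 for *Acsl1*.

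In CTAL the same deletion was read from 5 cKO and 5 WT pools. *Acsl5* rose and no other gene of the 30 passed the test of edgeR. Both tests of DESeq2 also called *Acsl4* higher and *Acsl1* and *Acaa2* lower. Of 11702 genes 0.658% were called higher and 0.564% lower. The CPM did not overlap for 0 genes that were higher and for 2 that were lower, *Acadl* and *Hadh*, where 1.9% and 1.23% of all genes did so. Estimates were below 0 for 24 of the 30, and their median was −0.19 against 0.00 over all genes. On log2(TPM + 1) the median was −0.06 against 0.11, a distance of −0.18. Without WT pool 1, whose labels conflict, the median of the 30 was −0.19.

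*Acsl5* had 267, 176, 157, 241 and 222 CPM in cKO CTAL pools 2, 4, 7, 9 and 21. In WT CTAL pools 1, 3, 8, 10 and 22 it had 174, 118, 113, 141 and 125 CPM. Only WT pool 1, whose labels conflict, exceeded the lowest cKO pool. The log2 fold change was 0.65 ± 0.14 with an adjusted p of 0.0397, and it was 0.76 with an adjusted p of 0.0120 without WT pool 1. The call was lost without any one of WT pools 3, 8, 10 and 22 or cKO pools 2, 9 and 21, at adjusted p between 0.0851 and 0.114. Without the *Xist* pools the log2 fold change was 0.48 with an adjusted p of 0.411. The tubular injury sum was 1891 to 4979 CPM in cKO CTAL, highest in pool 2 as for *Acsl5*, and 1563 to 1785 CPM in WT CTAL, and 1 of 5 injury markers tested was called higher. Its part in the difference was not tested.

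The other 5 genes called in MTAL had smaller estimates in CTAL, and none of them passed the test of edgeR. *Slc27a2* had 98.8, 27.8, 51.8, 54.1 and 69.7 CPM in cKO CTAL and 33.3, 16.9, 26.7, 32.2 and 65.7 CPM in WT CTAL, pools in the order above. The groups overlapped widely, and the log2 fold change was 0.77 ± 0.32 with an adjusted p of 0.344, or 0.75 and 0.421 without WT pool 1. The proximal tubule sum was 547 to 989 CPM in cKO CTAL, highest in pool 2 as for *Slc27a2*, and 436 to 633 CPM in WT CTAL, highest in pool 22 as for *Slc27a2*. The part of proximal tubule RNA was again not tested.

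*Cd36* had 36.9 to 60.3 CPM in cKO CTAL against 44.4 to 67.6 CPM in WT CTAL, with a log2 fold change of −0.31 and an adjusted p of 0.375. *Acsl1* ranged from 441 to 583 CPM against 558 to 742 CPM, with −0.32 and an adjusted p of 0.153. *Ppargc1a* had −0.20 and *Ppara* −0.25, with adjusted p of 0.358 and 0.577. *Acsl4* had the second smallest p among the synthetases, with 82.4 to 125 CPM against 65.0 to 93.3 CPM, a log2 fold change of 0.42 and an adjusted p of 0.123, or 0.48 and 0.0671 without WT pool 1. Under the likelihood ratio test of DESeq2 the adjusted p was 0.0334 for *Acsl4* and 0.0399 for *Acsl1*. *Acaa2* came nearest to a call among the enzymes, at 121 to 157 CPM in cKO CTAL and 153 to 201 CPM in WT CTAL, a log2 fold change of −0.36 and an adjusted p of 0.0780, or −0.37 and 0.0947 without WT pool 1, and 0.0142 under the likelihood ratio test of DESeq2. The 14 genes from the carnitine acyltransferases, the dehydrogenases, the electron carriers and the trifunctional protein with its partners lay between −0.47 (*Acadvl*) and 0.00 (*Acads*), and no interval reached above 0.48.

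**Figure D4:**
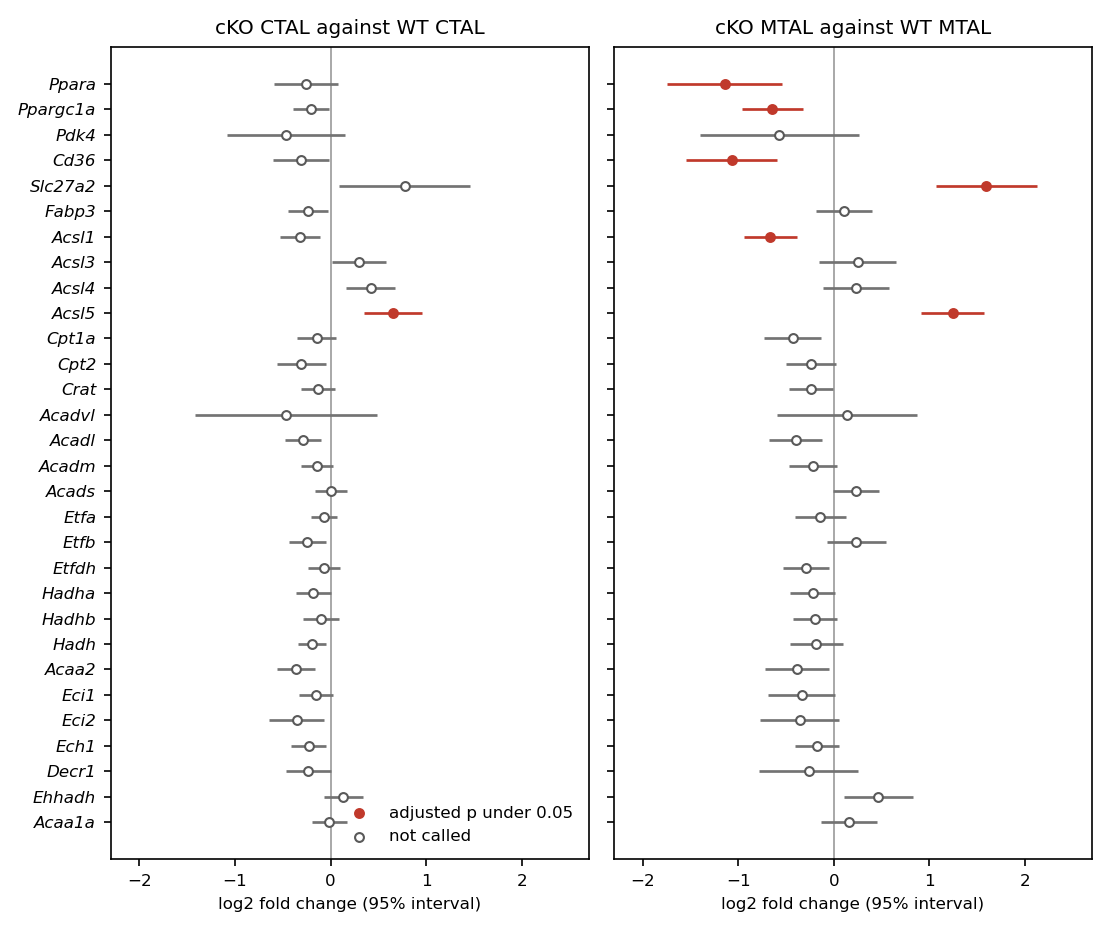
Log2 fold change of cKO against WT for the 30 genes in CTAL (left) and MTAL (right), as points with 95% intervals, filled red where the adjusted p of edgeR was below 0.05. In CTAL *Acsl5* is the red point, and in MTAL 6 genes are red, 2 to the right of 0 and 4 to the left.

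The difference between the genotype effects of both segments was tested as an interaction in 1 fit of all 18 pools. None of the 30 genes was called by edgeR or by the likelihood ratio test of DESeq2, and 0.286% of 12586 genes were called by edgeR. At an unadjusted p below 0.05 there were 6 of the 30. The share of all genes at that threshold was not taken, so that this count has no background beside it. *Ppara* had a difference of −0.90 (95% interval −1.53 to −0.28, adjusted p of 0.151) and *Cd36* one of −0.77 (−1.31 to −0.23, adjusted p of 0.153). *Slc27a2* had 0.80 with an interval from −0.17 to 1.78, and *Acsl5* had 0.57 with an interval from 0.095 to 1.05 and an adjusted p of 0.244. The larger effects in MTAL were thus not shown to differ from those in CTAL.

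Between the segments of WT mice 3 of the 30 genes differed. *Ppara* was higher in MTAL, at 14.5 to 28.4 CPM against 12.1, 8.94, 8.72, 12.7 and 12.9 CPM in WT CTAL pools 1, 3, 8, 10 and 22, with no overlap, a log2 fold change of 0.82 ± 0.20 and an adjusted p of 0.0170. The adjusted p was 0.0364 without WT CTAL pool 1 and 0.0527 without WT CTAL pool 8. *Acsl5* was lower in MTAL, at 59.6 to 81.1 CPM against 113 to 174 CPM, with −0.91 ± 0.11 and an adjusted p of 8.07e-05, or −0.80 and 0.000124 without WT CTAL pool 1. *Acsl4*, at 51.6 to 74.3 CPM in WT MTAL and 65.0 to 93.3 CPM in WT CTAL, was lower, with a log2 fold change of −0.41 ± 0.12 and an adjusted p of 0.0492. That call was lost without WT CTAL pool 1 (adjusted p of 0.158), as without any one of 6 other pools, WT CTAL 8 and 10 and WT MTAL 11, 13, 15 and 17. Of 11650 genes 2.76% were higher in MTAL and 4.1% lower. The median of the 30 genes was −0.02, as without WT CTAL pool 1, and that of all genes 0.02. DESeq2 also called *Acsl1* higher and *Acsl3* lower in MTAL. Leaving out the *Xist* pools left WT MTAL pool 13 alone against 3 WT CTAL pools, with the lone pool assumed to vary like the others. In that fit *Acsl3* (−0.82, adjusted p of 0.0415) and *Ehhadh* (−0.89, adjusted p of 0.0167) were called lower in MTAL, *Ppara* had 0.37 with an adjusted p of 0.394 and *Acsl5* −0.82 with one of 0.0867.

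The WT MTAL pools enter this comparison and that of the deletion in MTAL, so that both share their values of *Ppara* and *Acsl5*. Set side by side, *Ppara* averaged 19.8 ± 5.50 CPM in WT MTAL (n = 5), 8.64 ± 2.21 in cKO MTAL (n = 3), 11.1 ± 2.08 in WT CTAL and 9.38 ± 0.834 in cKO CTAL (n = 5 each). *Acsl5* averaged 72.0 ± 7.78, 165 ± 49.7, 134 ± 24.5 and 213 ± 45.4 CPM in the same order. WT MTAL was the highest group for the first gene and the lowest for the second.

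Between the segments of cKO mice *Cd36* alone was called among the 30 by edgeR, and DESeq2 also called *Fabp3* higher and *Acsl4* and *Cpt1a* lower in MTAL. It had 43.8, 36.9, 40.6, 49.1 and 60.3 CPM in cKO CTAL pools 2, 4, 7, 9 and 21 and was lower in all 3 cKO MTAL pools, with a log2 fold change of −1.08 ± 0.20 and an adjusted p of 0.0165. Of 12044 genes 1.12% were higher in cKO MTAL and 0.631% lower, and 0.938% were called with at least a 2-fold change. The call was lost without cKO CTAL pool 9 or cKO MTAL pool 20, at adjusted p of 0.0527 and 0.0523. The endothelial sum overlapped here, at 271 to 392.2 CPM in cKO CTAL and 219 to 363 CPM in cKO MTAL, and 0 of 11 endothelial markers tested were called. For *Ppara* the log2 fold change between the segments of cKO mice was −0.05, with a 95% interval from −0.55 to 0.45.

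**Figure D5:**
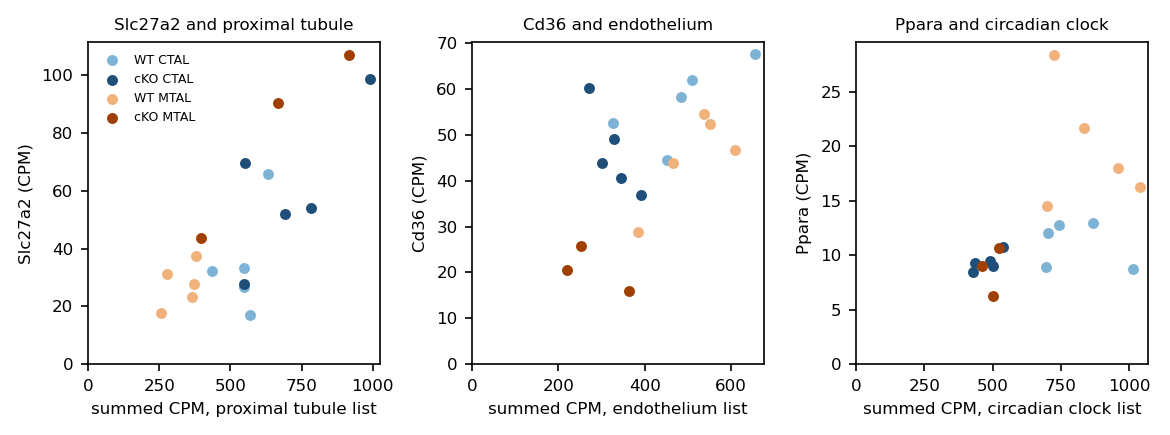
CPM of *Slc27a2*, *Cd36* and *Ppara* in each pool against the summed CPM of the proximal tubule, endothelial and circadian clock lists, coloured by group, on axes that start at 0. The pools with the highest *Slc27a2*, cKO MTAL 18 (107 CPM) and cKO CTAL 2 (98.8 CPM), also have the highest proximal tubule sums, 915 and 989 CPM. Other pools, such as cKO CTAL 21 with a sum of 550 CPM, do not follow this order. No test of these relations was made.

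A further 103 genes in 7 lists cover the rest of the pathway, of which 78 were tested in MTAL. In cKO MTAL 3 of the 78 rose (3.85%) and 6 fell (7.69%), against 4.44% and 2.57% of all genes, with a median log2 fold change of −0.07. *Lpl*, the lipoprotein lipase that frees fatty acids from lipoproteins, fell the most, from 1143 ± 136 CPM in WT MTAL (n = 5) to 480 ± 15.5 CPM in cKO MTAL (n = 3), a log2 fold change of −1.20 ± 0.12 with an adjusted p of 2.37e-05. *Fabp4*, the binding protein of adipocytes and capillary endothelium, fell by 1.03 on the log2 scale and *Mgll*, the monoglyceride lipase, by 0.62. Other adipocyte markers were near 0, with 4 to 6 of 8 at 0 in every cKO MTAL and WT MTAL pool. *Acaa1b*, a peroxisomal thiolase, rose by a log2 fold change of 1.97, *Acsm2*, a medium-chain synthetase abundant in the proximal tubule, by 1.68, and *Acss1*, the mitochondrial acetyl-CoA synthetase, by 0.59. In MTAL the median of the 14 peroxisomal genes tested was 0.06, that of 13 further mitochondrial dehydrogenases and auxiliary enzymes −0.12, and that of 11 lipid droplet and storage genes −0.29.

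In cKO CTAL 0 of 77 rose and 2 fell (2.6%), against 0.658% and 0.564% of all genes. The 2 were *Lpl*, from 1049 ± 208 to 656 ± 119 CPM (n = 5 each, log2 fold change −0.69, adjusted p of 0.0363), and *Nr1d1*, a clock repressor, with a log2 fold change of −0.72. Without WT pool 1 *Lpl* had −0.66 with an adjusted p of 0.0579, *Nr1d1* had −0.75 with one of 0.0197, and *Acss1* and *Fabp4* were called as well. Between WT segments *Acss1* was lower in MTAL, with a log2 fold change of −1.08, at 177 to 222 CPM against 366 to 497 CPM, as were *Pdk3*, a pyruvate dehydrogenase kinase, and *Acat1*, a thiolase of ketone body metabolism, with −0.47 and −0.27. Without WT CTAL pool 1 *Acss1* had −1.01 and was called, while *Pdk3* and *Acat1* were not (adjusted p of 0.153 and 0.134). In cKO mice *Acss1* alone was lower in MTAL, with −0.76.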

How the data were processed

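RNA-seq libraries of 18 pools, each from a distinct mouse, were analysed from the deposited tables. The authors trimmed reads (fastp in their methods, Trimmomatic in the submitters' processing notes), mapped them to mm10 and quantified them with Illumina DRAGEN and a gencode annotation. The authors deposited estimated counts per gene, not normalised, with decimals in 6.26% to 9.53% of genes, and TPM values, corrected for transcript length. Estimated counts were rounded to whole numbers, where the plan had assumed counts. Replicate pairs differed by more than sampling noise (chi-square per gene of at least 15.0). The labels of 1 pool conflict on genotype.

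Pairs of groups were fitted in edgeR 4.0.16 under R 4.3.3 with TMM factors and tested by its quasi-likelihood F test. Genes needed 3 CPM or more in 5 pools, or in 3 where cKO MTAL entered. P-values were adjusted by Benjamini-Hochberg over all genes tested, and called below 0.05. SE is the log2 fold change divided by the square root of F. The interaction was fitted on all 18 pools. Total counts of 10824328 to 62339991 leave the spread between pools, not counting, as the main error. Scripts were tested on simulated data. Alternatives used DESeq2 (version 1.42.0), limma (version 3.58.1) on TPM with pseudocounts of 1 and 0.1, other factors, no filter, pools left out, and, added after the data were seen, *Xist* and total counts. The genes and lists were chosen with earlier results of these data known. All 30 genes are named, with values in every pool for those called, and from the further lists up to 3 called genes per direction and comparison with the largest change. Positions are those of GRCm38 (mm10), with windows before starts from RefSeq. No protein sequences were used here.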

Additional observations from a re-analysis of the deposited data

Results flagged for a closer look

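In groups of 5 pools, the highest or lowest pool was set against the others by Dixon's test for each of the 30 genes. Of 90 gene and group pairs 7 were flagged, where chance gives about 4.5, or 1 in 20. In WT CTAL, *Crat* was high in pool 3 (230 CPM, the others 173 to 184) and *Decr1* in pool 8 (103 CPM, the others 67.0 to 76.9). In cKO CTAL, *Acadl* was low in pool 21 (199 CPM, the others 242 to 247), *Eci1* in pool 2 (47.0 CPM, the others 53.4 to 56.0) and *Ehhadh* in pool 4 (39.2 CPM, the others 50.1 to 54.4). In WT MTAL, pool 15 was low for *Etfdh* (132 CPM, the others 159 to 165) and high for *Pdk4* (514 CPM, the others 139.5 to 247). No gene of the 30 was called by the interaction of genotype and segment.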

How the results depend on the processing

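The number of genes called moved with the test more than with the normalisation factors. The counts below are of the pathway genes, and for the alternative settings the share of all genes called is not given beside them. A setting with more calls may call more genes of every kind, so that its count cannot be read as support for these genes. The calls of DESeq2 named above that edgeR did not make have the same limit. In the order cKO against WT in MTAL, cKO against WT in CTAL, MTAL against CTAL in WT and MTAL against CTAL in cKO, edgeR called 6, 1, 3 and 1 genes, and limma on TPM, with either pseudocount, 1, 0, 0 and 0. Both DESeq2 tests called 8, 4, 5 and 4. One fit of all 18 pools gave 10, 1, 2 and 2, the *Xist* term in that fit 7, 1, 2 and 2, no filter 8, 1, 2 and 2, and the *Xist* pools left out 0, 0, 2 and 1. Upper-quartile factors and total counts gave 6, 1, 2 and 1, and the gene lost in the third was *Acsl4*, as it was in one fit and without a filter. Leaving out each pool in turn gave 4 to 7, 0 to 1, 1 to 4 and 0 to 4, and 0 to 1 for the interaction. The lowest and highest in MTAL came without cKO MTAL pools 20 and 18, the lowest in WT without WT CTAL pool 8, and the highest in cKO, and the interaction of *Etfb*, without cKO MTAL pool 18. Among 221 repeats of the 11 called differences 164 were called again, 57 were not and 0 turned direction. No paired analysis was made, because the labels give no pairing and the groups compared share no replicate numbers. Intervals in MTAL were as wide as −1.40 to 0.26 (*Pdk4*), so that a 2-fold change was not detectable for every gene.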
